A study of Ischnura elegans with 24 samples.

Results

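The 150 contigs described here were the ones whose level varied least among male Ischnura elegans larvae, a damselfly, whatever their latitude of origin and rearing temperature. They were chosen from 34095 assembled transcript sequences (contigs). A contig was eligible when its mean level over 24 libraries was at least 20 CPM (counts scaled to a common library size, here sizes adjusted by the TMM method), which 5750 contigs were. The 150 with the lowest coefficient of variation (CV, the SD over the 24 libraries divided by their mean) were taken, 0.44% of all contigs. The choice used every library, so the CV and the group differences of these contigs are given as descriptions and not as tests, except in libraries left out of the choice.

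Larvae came from 3 southern and 3 northern populations, hatched from eggs of several mothers per population. They were kept singly from hatching to the final larval stage at 24 or 20 °C and fed Artemia nauplii. RNA of whole bodies was pooled from 3 male larvae per library, with 2 pools, named a and b, for each population and temperature. Each of the 4 groups (southern at 24 °C, southern at 20 °C, northern at 24 °C and northern at 20 °C) held 6 libraries. Library totals were 12061616 to 17157615 counts. Latitude differed between populations only, so that the 3 populations of a latitude are its replicates. The labels give latitude only through the population names. A level in a pool of whole bodies cannot tell fewer cells of a type from less RNA per cell.

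In an ectotherm such as a damselfly, body temperature follows the water, and rearing at another temperature changes the level of many transcripts, a response called thermal plasticity. Transcripts that keep their level are used as internal references: in quantitative PCR the level of a tested gene is divided by that of reference genes, commonly those for cytoskeleton, ribosome or basal metabolism in insects. In RNA sequencing the same role is played by the bulk of transcripts through a scaling factor for each library. A contig that takes a constant part of the scaled library may still differ in absolute amount between larvae, since only relative levels are measured. None of the 34095 identifiers matched the RefSeq gene table of the species, so no contig could be given a gene name, a function, a position or a sequence, and the labelled tissue could not be set against marker genes.

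The levels of the 150 contigs spanned 20.4 to 1301 CPM, with a median of 72.8 CPM against 44.7 CPM for the other 5600 eligible contigs. Contig lengths are not in the table, so these CPM values mix abundance and length and are not compared between contigs as expression. Their CV ran from 3.88% to 6.70% with a median of 6.10%, while the other eligible contigs ran from 6.71% to 488% with a median of 14.7%. For the median member the library with the highest CPM stood 1.27 times above the lowest, with a range of 1.15 to 1.42 times over the 150. The same ratio had a median of 1.83 over the other eligible contigs.

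**Figure D1:**
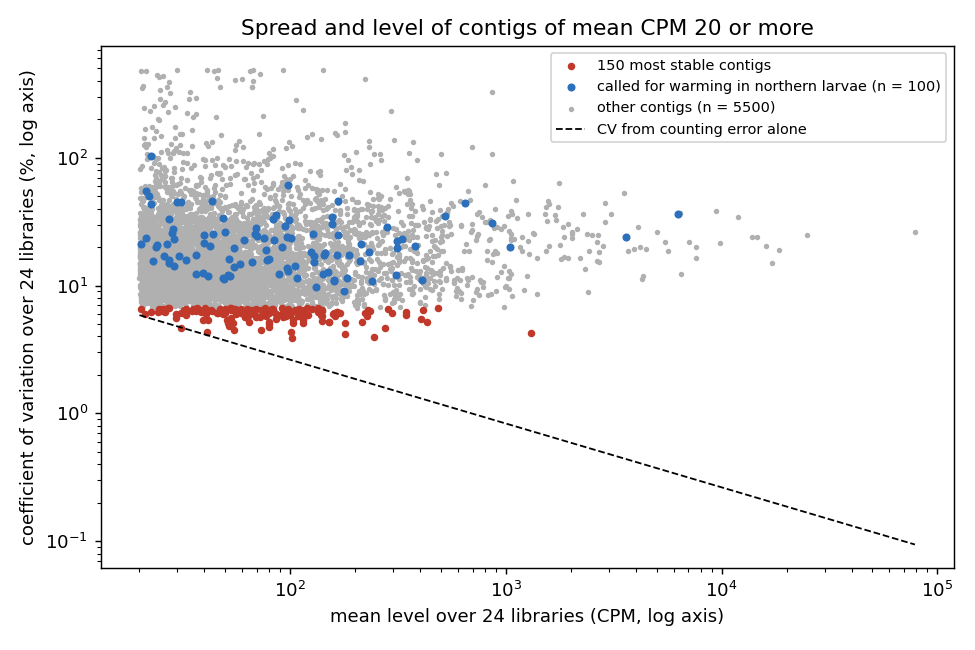
Coefficient of variation over 24 libraries (%, log axis) against mean level (CPM, log axis) for the 5750 contigs of mean CPM 20 or more. Red points are the 150 most stable contigs, blue points the 100 contigs called for warming in northern larvae, grey points the rest, and the dashed line the CV that counting error alone would give. The red points end at a CV of 6.70% and the lowest blue point lies at 9.00%.

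Counting error made up part of this small spread. From the mean counts, sampling of reads alone would give the 150 contigs CVs of 0.728% to 5.81% with a median of 3.07%, and that variance was 28.0% of the observed variance for the median member against 6.10% for the median of the others. In 1 member the observed CV lay at or under the counting CV, which no other eligible contig did. The rule took members unevenly over levels. Of the contigs at 20 to 50 CPM, 1.37% were members (43 of 3150), while 4.08% were at 50 to 100 CPM, 5.41% at 100 to 200 CPM and 3.95% at 200 to 500 CPM. Above 500 CPM 1 of 202 contigs was a member (0.495%), and the eligible contigs there had a median CV of 21.8%, although counting error alone would give 0.843%.

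The contig with the lowest CV was TRINITY_DN124275_c0_g1_i1 (3.88%). It ran from 97.5 to 107.8 CPM in southern larvae at 24 °C (median 103.9), 99.7 to 105.3 at 20 °C (median 101.7), 90.8 to 106.0 in northern larvae at 24 °C (median 99.6) and 98.7 to 104.7 at 20 °C (median 102.7). All 4 groups overlapped, and the lowest value belonged to northern pool 2a at 24 °C. TRINITY_DN70426_c0_g1_i1 (CV 3.96%) averaged 241.8 ± 11.3 CPM in southern larvae at 24 °C, 247.6 ± 10.5 at 20 °C, 243.8 ± 9.91 in northern larvae at 24 °C and 243.7 ± 8.56 at 20 °C (SD, n = 6 each). Its group means differed by less than the SD within any group.

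TRINITY_DN176816_c0_g1_i1 (CV 4.20%) averaged 185.8 ± 7.95 CPM for southern larvae at 24 °C, 178.8 ± 4.88 at 20 °C, 178.3 ± 8.83 for northern larvae at 24 °C and 176.3 ± 5.89 at 20 °C (SD, n = 6 each), and all 4 ranges overlapped. TRINITY_DN7140_c14_g2_i1 (CV 4.23%) held the highest count share of the 150. For southern larvae it averaged 1330 ± 53.1 CPM when warm (24 °C) and 1270 ± 33.3 CPM when cool (20 °C). For northern larvae the means were 1337 ± 49.8 CPM when warm and 1266 ± 48.7 CPM when cool (SD, n = 6 each). In both latitudes the mean was higher at 24 °C by more than the SD of either group, yet the libraries overlapped, from 1261 to 1391 CPM at 24 °C and from 1207 to 1303 at 20 °C in southern larvae. With 14926 to 23578 counts per library, counting error was 2.96% of its variance.

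At the edge of the list the values ran on without a gap. The last contigs taken were TRINITY_DN68786_c1_g1_i7 (134.3 CPM, CV 6.70%) and TRINITY_DN76103_c0_g2_i3 (37.0 CPM, CV 6.70%), and the first left out were TRINITY_DN278652_c1_g1_i1 (204.3 CPM, 6.71%) and TRINITY_DN70173_c0_g1_i4 (56.0 CPM, 6.72%). The last pair taken had its lowest library in northern pool 2a at 24 °C.

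The identifiers carry the assembler's grouping of contigs into genes. Of the 150 contigs, 121 (80.7%) were the only contig of their Trinity gene, close to the 80.3% of all eligible contigs. The 150 came from 147 Trinity genes, and 3 genes supplied 2 members each. One of these pairs, TRINITY_DN174019_c0_g1_i1 and TRINITY_DN174019_c0_g1_i2, lay at 117.0 and 115.1 CPM, and reads shared by such contigs could have been split between them, so these pairs are not independent members. In the 29 members of genes with several contigs, the member held a median of 49.9% of the gene's counts. The 30 other eligible contigs of these genes had CVs of 6.77% to 12.1% (median 8.38%). All contigs of a gene were also summed, an alternative added after the data were seen. The genes of 141 members were then among the 150 of lowest CV. Summing leaves the level of the 121 single-contig members unchanged. Of the 29 members of genes with several contigs, 22 had their gene among these 150.

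Summed over all 150 contigs, the scaled level was nearly flat. It averaged 16207 ± 268 CPM in southern larvae at 24 °C, 15996 ± 98.2 at 20 °C, 16024 ± 326 in northern larvae at 24 °C and 15986 ± 275 at 20 °C (SD, n = 6 each). The 24 libraries ran from 15620 to 16457 CPM, a ratio of 1.05. As a share of raw library totals the same sum varied more, from 1.32% to 1.90%. For southern larvae the mean was 1.66% ± 0.131 at 24 °C against 1.73% ± 0.111 at 20 °C. For northern larvae it was 1.42% ± 0.113 at 24 °C against 1.64% ± 0.0775 at 20 °C. In northern larvae at 24 °C 5 of the 6 libraries lay at or under 1.43%, below every northern library at 20 °C (1.53% to 1.76%), while pool 1b had 1.64%.

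In both latitudes the mean TMM factor was lower at 24 °C, as this raw share was, while the share of counts in the most abundant contigs was higher. The 150 contigs were chosen for a flat level on the TMM scale, so the relation of raw share and TMM factor was fixed by the choice. The mean TMM factor for southern larvae was 1.02 ± 0.0773 at 24 °C against 1.08 ± 0.0707 at 20 °C, and for northern larvae 0.887 ± 0.0693 at 24 °C against 1.03 ± 0.0359 at 20 °C. The 10 contigs with the most counts took 21.0% ± 2.12 of raw counts from southern larvae at 24 °C against 20.0% ± 2.15 at 20 °C, and 23.7% ± 1.78 from northern larvae at 24 °C against 20.0% ± 2.92 at 20 °C. Their part in the raw share was not tested. The CV of the 150 contigs rests on this scaling: the rule applied to CPM on raw totals chose 13 of them.

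**Figure D2:**
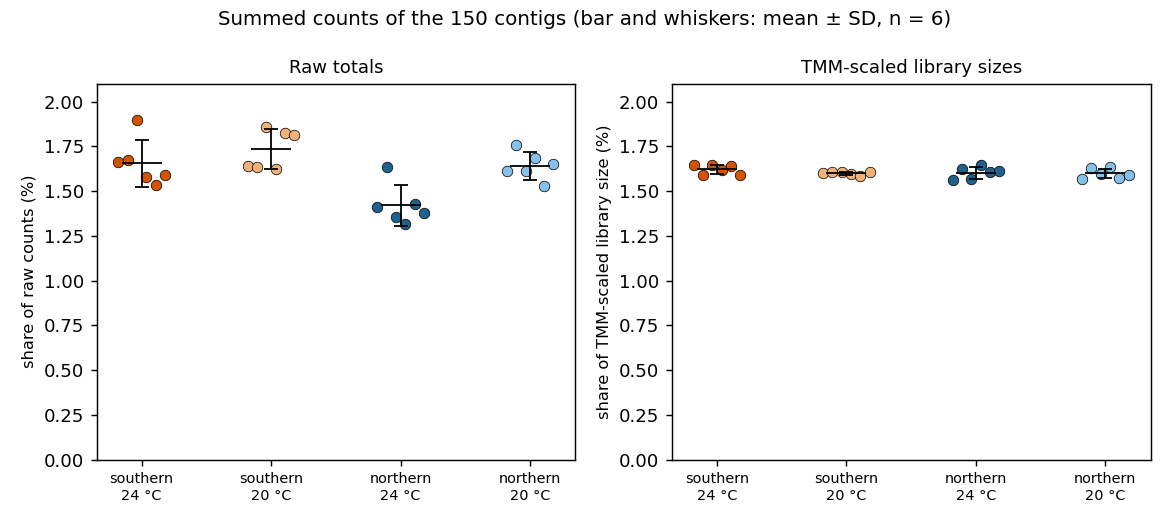
Summed counts of the 150 contigs in each library, as a percentage of raw totals (left) and of TMM-scaled library sizes (right), by group, with mean and SD (n = 6 libraries). The raw shares run from 1.32% to 1.90% and are lowest in northern larvae at 24 °C, while the scaled shares lie between 1.56% and 1.65% in all groups.

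Single libraries still stood out among the small deviations. The median absolute deviation of the 150 contigs from their own mean was 0.040 to 0.093 log2 units per library, against 0.105 to 0.272 for the other eligible contigs. Northern pool 1b at 20 °C was highest on both (0.093 and 0.272), and northern pool 2a at 24 °C came next for the 150 contigs (0.080). Of the 150 contigs, 71 (47.3%) had their lowest library among the 6 of northern larvae at 24 °C, as did 29.6% of the other eligible contigs, while these libraries are 25% of all. Pool 2a of that group alone was the lowest library for 17.3% of the 150 contigs and for 9.27% of the others. The median correlation between members across the 24 libraries was 0.05 on the log2 scale, against 0.0039 between the other eligible contigs, while their first principal component held 13.7% of the scaled variance against 24.1% for the other eligible contigs.

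The variance of each contig was then split by the design, which is balanced. Pools of the same population and temperature carried a mean of 46.0% of the variance of the 150 contigs on the log2 scale, where their share of the degrees of freedom is 52.2%. Population within latitude carried 16.9% and population by temperature 16.2%, with 17.4% of the degrees of freedom each. Latitude carried 9.90%, temperature 7% and their interaction 3.99%, with 4.35% of the degrees of freedom each. Latitude held 2.28 times and temperature 1.61 times its share of the degrees of freedom in the contigs chosen as most stable. In the other eligible contigs latitude held 17.1% and temperature 9.39% of a variance that was itself larger, 3.93 and 2.16 times the share of degrees of freedom.

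Warming left small differences in the 150 contigs. No member was called for temperature in northern larvae (edgeR quasi-likelihood test, adjusted p under 0.05 over all contigs), in southern larvae, or in the mean of both latitudes, where 0.559%, 0.105% and 1.82% of the 31287 tested contigs were called (1.74%, 0.0872% and 4.29% of the 5736 eligible contigs tested). All 150 contigs passed the filter on low counts. With p under 0.05 before adjustment stood 7 members in northern larvae (4.67%), 1 in southern larvae (0.667%) and 6 in the mean (4%), against 13.6%, 7.02% and 14.8% of all tested contigs and 21.8%, 9.47% and 23.3% of the eligible ones. DESeq2 called 2 members in northern larvae, 0 in southern larvae and 2 in the mean, where it called 807, 57 and 1115 contigs in all (2.8%, 0.237% and 3.71% of those with an adjusted p). Since the rule kept only contigs of low spread over these same libraries, low counts were fixed by the choice and are read no further.

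In size, the log2 fold changes of the 150 contigs lay between -0.15 and 0.18 in northern larvae, with a median absolute value of 0.039 against 0.129 for the other eligible contigs. In southern larvae they lay between -0.12 and 0.13 with a median of 0.038 against 0.089. On the fold scale the highest northern value was 1.13 and the lowest 0.899. In northern larvae 65 of the 150 contigs were higher and 85 lower at 24 °C, and in southern larvae 83 were higher and 67 lower. The southern majority turned when the libraries were scaled to the summed members, with 66 higher and 84 lower by the difference of mean log2 CPM. The 95% intervals of the members reached -0.27 and 0.28 for northern warming, and -0.25 and 0.26 for southern warming. These intervals do not cover the choice of contigs by their low spread.

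TRINITY_DN125567_c0_g1_i1 had the highest northern value. It ran from 378.9 to 444.1 CPM in southern larvae at 24 °C (median 433.6) and 384.8 to 425.2 at 20 °C (median 399.3), and from 409.4 to 463.2 CPM in northern larvae at 24 °C (median 432.7) and 367.5 to 396.0 at 20 °C (median 383.1). The northern groups did not overlap, while the southern groups did. Its northern log2 fold change was 0.18 ± 0.05 (SE, edgeR adjusted p = 0.113), and over both latitudes 0.12 ± 0.04 (edgeR adjusted p = 0.0828). DESeq2 called it in northern larvae (log2 fold change 0.17, adjusted p = 0.000991) and in the mean (0.12, adjusted p = 0.000657). Over 36 alternatives its northern adjusted p was 0.000991 to 0.477.

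The other member DESeq2 called was TRINITY_DN5411_c0_g1_i1, the second in count share, at 506.6 ± 29.0 CPM in northern larvae at 24 °C and 454.9 ± 16.3 at 20 °C (SD, n = 6 each). DESeq2 gave it a northern log2 fold change of 0.15 (adjusted p = 0.0333) where edgeR gave 0.16 (adjusted p = 0.204). TRINITY_DN7449_c1_g1_i1 had the lowest northern value, at 142.3 to 161.6 CPM at 24 °C (median 155.3) and 155.2 to 182.1 at 20 °C (median 172.9). Its groups overlapped at their ends, and its log2 fold change was -0.15 ± 0.06 (SE, edgeR adjusted p = 0.223).

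Northern libraries at 24 and 20 °C did not overlap in 2 of the 150 contigs, TRINITY_DN125567_c0_g1_i1 and TRINITY_DN15739_c0_g1_i1 (30.2 to 32.2 CPM at 24 °C, 32.6 to 35.5 at 20 °C), the second singled out after its values were seen. Over all eligible contigs 2.50% did not overlap, against 1.33% of the 150. In southern larvae there were 0 such members, against 1.86% of eligible contigs. The southern extremes were TRINITY_DN175272_c0_g2_i3, at 52.5 ± 2.81 CPM at 24 °C and 48.0 ± 1.83 at 20 °C (SD, n = 6), with a log2 fold change of 0.13 ± 0.06 (edgeR adjusted p = 0.646), and TRINITY_DN174898_c0_g1_i2, at 23 ± 0.900 CPM at 24 °C and 25 ± 1.52 at 20 °C (-0.12 ± 0.06, edgeR adjusted p = 0.751).

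The responses of the latitudes were also compared by the test of their difference. As in the other temperature tests, single libraries were fitted, so the 2 pools of a population and temperature counted as separate replicates. No member was called by edgeR, where 0.0256% of tested contigs were, or by DESeq2, where 0.0499% were, and 1 member (0.667%) had an unadjusted p under 0.05 against 5.17% of tested and 5.2% of eligible contigs. The 8 contigs behind the edgeR share became 0 without any 1 of 6 libraries and 19 without northern pool 3b at 24 °C. With the pools of a population and temperature summed, an alternative added after the data were seen, edgeR called 0 contigs for the difference. The member with an unadjusted p under 0.05 was TRINITY_DN175272_c0_g2_i3. Its northern means were 48.6 ± 2.99 CPM at 24 °C and 50.7 ± 2.67 at 20 °C (SD, n = 6), a difference of responses, southern minus northern, of 0.19 ± 0.08 on the log2 scale (SE, edgeR adjusted p = 0.904). At the other end TRINITY_DN174443_c3_g1_i2 had a difference of -0.18 ± 0.09 (edgeR adjusted p = 0.964), with 100 ± 3.37 CPM for southern larvae at 24 °C against 107.7 ± 7.32 at 20 °C, and 110.0 ± 7.32 CPM for northern larvae at 24 °C against 104.6 ± 5.44 at 20 °C.

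**Figure D3:**
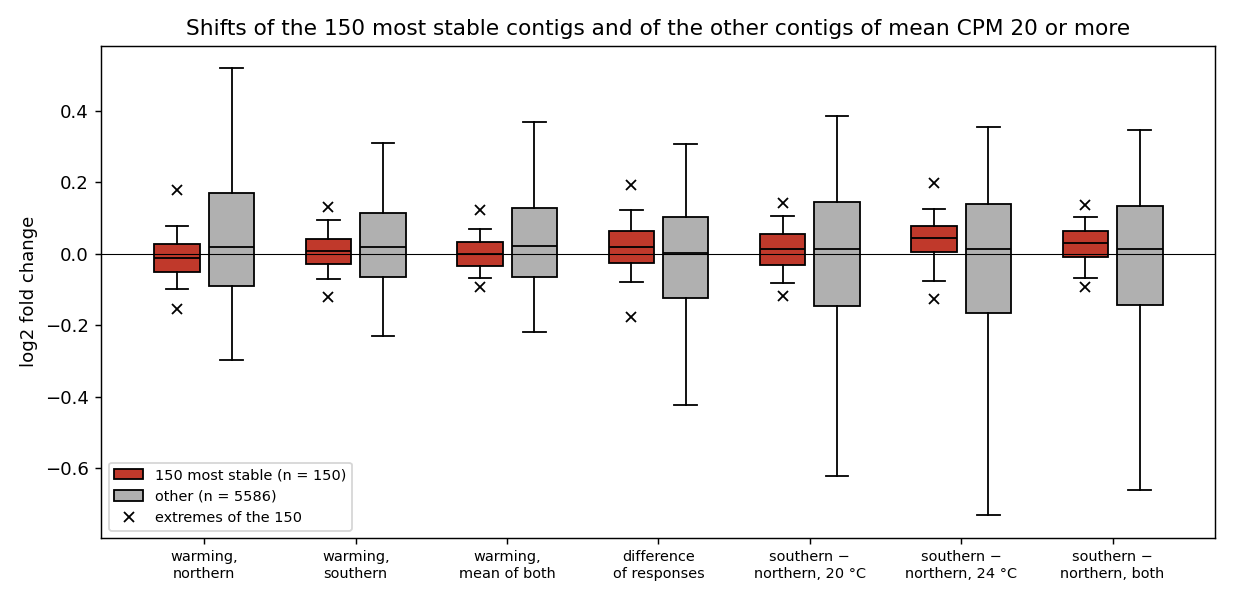
Log2 fold changes (24 over 20 °C for warming, southern over northern for latitude, southern minus northern for the difference of responses) of the 150 most stable contigs (red) and of the 5586 other tested contigs of mean CPM 20 or more (grey). Boxes span the quartiles with the median, whiskers the 5th to 95th percentile, and crosses mark the extremes of the 150, which stay within -0.18 and 0.20 in all comparisons.

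Latitude was compared on counts summed over the libraries of a population, 3 populations against 3. Again no member was called at 20 °C, at 24 °C or over both temperatures (edgeR), where 0%, 0.495% and 1.98% of the tested contigs were called (0%, 1.19% and 4.46% of the eligible ones). Before adjustment 0, 2 and 3 members had p under 0.05, all higher in southern larvae, against 14.4%, 14.3% and 20.1% of all tested and 21.4%, 22.9% and 31.2% of the eligible contigs. The shares over all contigs rest on few populations: with 1 library left out, the 155 contigs called at 24 °C became 27 (without southern pool 2b at 24 °C) to 310 (without northern pool 2a at 24 °C), and the 621 over both temperatures became 219 (without southern pool 1b at 24 °C) to 1048 (without southern pool 1a at 20 °C). DESeq2 called 0 members in each, where it called 918, 1449 and 2754 contigs in all (2.94%, 4.66% and 8.85%). With limma on single libraries, population as a random block, 0, 0 and 2 members were called among 24, 846 and 3154 contigs (0.0767%, 2.7% and 10.1%).

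The members lay slightly higher in southern larvae at 24 °C. Of the 150 contigs, 114 (76.0%) had a positive southern-minus-northern difference there, with a median of 0.04 on the log2 scale, while 52.5% of the other eligible contigs were positive with a median of 0.01. At 20 °C the members were 87 positive and 63 negative with a median of 0.01. By the difference of mean log2 CPM at 24 °C, 107 were positive with TMM, 116 with RLE size factors and 92 with scaling to the members themselves, whose own sum that scaling holds level. Northern pools 1a and 2a at 24 °C stood lowest among the libraries of their group, with a median deviation of the members of -0.051 and -0.034 log2 units against -0.010 to 0.012 in the other 4. Southern libraries at 24 °C also differed, from -0.016 in pool 3b to 0.035 in pool 1a and 0.044 in pool 2a. No southern library was left out for this count. Without northern pools 1a and 2a at 24 °C the TMM count was 90 of 150 with a median of 0.01 in place of 0.03. These 2 were left out after their low values were seen, so a lower count was fixed by that choice. Without 1 northern library at 24 °C, also added after the data were seen, the TMM count was 97 (without 1a) to 112. The size is small beside the spread, since the log2 differences of single members ran from -0.13 to 0.20 at 24 °C with a median SE of 0.08.

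TRINITY_DN233406_c0_g1_i2 had the highest latitude difference at 24 °C. It ran from 84.2 to 92.0 CPM in southern larvae at 24 °C (median 87.2) and 70.9 to 83.8 in northern larvae at 24 °C (median 76.8), without overlap. At 20 °C it ran from 81.3 to 89.4 CPM in southern larvae (median 85.7) and 75.4 to 88.2 in northern larvae (median 81.0), with overlap. The log2 difference was 0.20 ± 0.08 at 24 °C (SE, edgeR adjusted p = 0.302) and 0.14 ± 0.05 over both temperatures (edgeR adjusted p = 0.201). The limma fit called it over both temperatures (log2 difference 0.13, limma adjusted p = 0.0372), with TRINITY_DN70519_c0_g1_i1 (0.13, limma adjusted p = 0.048).

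TRINITY_DN70519_c0_g1_i1 also had the highest difference at 20 °C, at 44.8 ± 2.62 CPM for southern against 40.6 ± 2.06 CPM for northern larvae (SD, n = 6, log2 difference 0.14 ± 0.08, edgeR adjusted p = 0.447). On the lower side stood TRINITY_DN68786_c1_g1_i7 at 20 °C, with 129.9 ± 6.40 CPM for southern against 141.8 ± 7.21 CPM for northern larvae (-0.12 ± 0.07, edgeR adjusted p = 0.476). At 24 °C it was TRINITY_DN174443_c3_g1_i2 (-0.13 ± 0.07, edgeR adjusted p = 0.503) and over both temperatures TRINITY_DN7392_c0_g3_i3 (-0.09 ± 0.06, edgeR adjusted p = 0.393). Southern and northern libraries did not overlap in 3 members (2%) at 20 °C, all higher in southern larvae, against 3.11% of eligible contigs. At 24 °C there were 2 (1.33%), 1 in each direction, against 7.62% of eligible contigs. Low shares were favoured by the choice, and the 6 libraries of a group come from 3 populations.

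To measure stability in libraries that the choice had not seen, the rule was applied to the 12 libraries of 1 pool letter and the contigs were measured in the 12 of the other. Choosing on pool a gave 150 contigs with a median CV of 5.22% there and of 8.69% in pool b, where all eligible contigs had a median of 14.8%. Those chosen on pool b had 5.36% there and 7.35% in pool a, against 13.5%. In the libraries not used, 136 and 146 of the 150 lay below the median CV of the eligible contigs, and 102 and 115 below its lowest quartile. The lists from pools a and b shared 29 contigs, 19.3% of each, where a list holds 2.62% and 2.59% of the eligible contigs of the other pool.

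**Figure D4:**
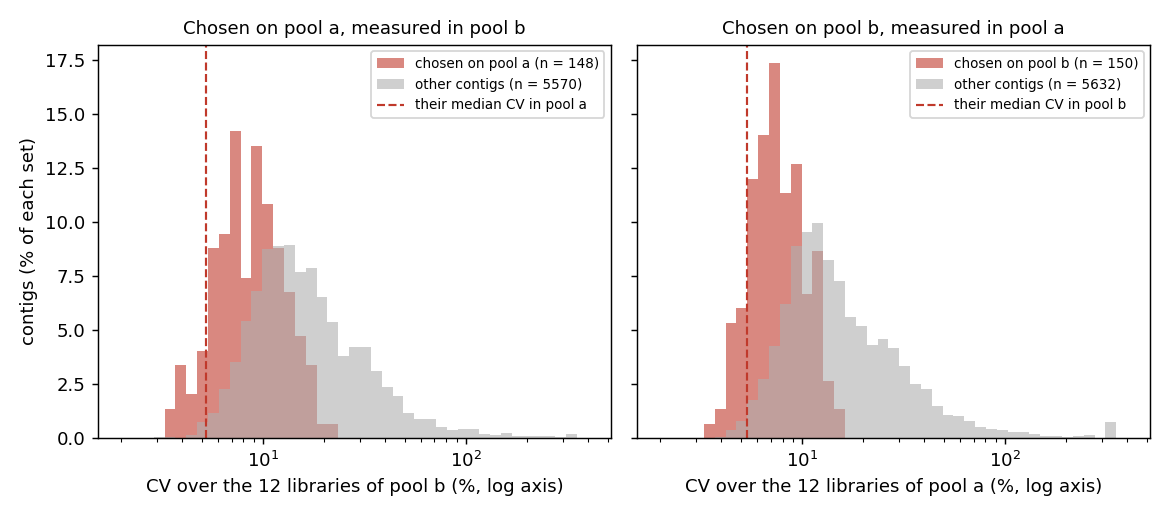
Distribution of CV (%, log axis) in the libraries not used for the choice, as a percentage of each set: contigs chosen by the rule on pool a and measured in pool b (left, 148 of 150 with a mean of 20 CPM or more in pool b) and the reverse (right). Red bars are the chosen contigs, grey bars the other eligible contigs, and the dashed line is the median CV of the chosen contigs where they were chosen, 5.22% and 5.36%, left of most red bars.

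The same exchange was also made between temperatures and between latitudes. Lists chosen on the 24 °C and on the 20 °C libraries shared 24 contigs (16.0%), and those chosen on southern and on northern libraries shared 21 (14.0%). A list holds 2.53% to 2.69% of the eligible contigs of the libraries left out. The difference from the 29 contigs shared between pools was not tested. Contigs chosen at 24 °C had a median CV of 7.52% at 20 °C, against 13.8% for eligible contigs, and those chosen at 20 °C had 8.53% at 24 °C, against 13.6%. Contigs chosen on southern libraries had a median CV of 8.75% in northern libraries, against 15% for eligible contigs, and those chosen on northern libraries had 6.16% in southern libraries, against 10.9%. The lists chosen at 24 °C, at 20 °C, on southern and on northern libraries held 71, 58, 54 and 81 of the 150 members. Of the 150 members, 9 were chosen in all 6 of these lists of 12 libraries, among them the 5 of lowest CV, and 3 members in none. The members were chosen on the same 24 libraries that these lists divide, so this agreement was favoured by the choice and is a description.

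The pool not used for the choice holds other larvae, but from the same 6 populations at the same temperatures. Tests in it are free of the choice for the spread between pools. They are not free of it for what both pools share, the spread between populations and that of population by temperature. The CV used for the choice also included any difference between the temperatures in those populations. For temperature in northern larvae, the contigs chosen on pool a had 0 calls in pool b (edgeR, adjusted p under 0.05, where 0% of all contigs were called) and 4 of 150 at an unadjusted p under 0.05 (2.67%), against 12.9% of eligible contigs. With the pools exchanged there were again 0 calls (0.00315% of all contigs) and 4 of 150 (2.67%), against 13.2%. For southern larvae the shares were 0.667% and 1.33%, against 3.29% and 6.89%. For the mean of both latitudes they were 2.67% and 3.33%, against 12.1% and 15.6%, and for the difference of responses 0.667% in both, against 4.13% and 4.15%. No contig chosen on 1 pool was called for temperature in the other by edgeR. Over all contigs at most 0.00636% were called there (mean of both latitudes, pool b), so the comparison rests on the unadjusted shares.

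For latitude, whose replicates are the 3 populations on each side, both pools share those replicates, and the values below are given as a description. edgeR called 0 of the chosen contigs in the other pool, where it called 0%, 0.0605% and 0.305% of all contigs in pool b and 0%, 0.823% and 0.104% in pool a (20 °C, 24 °C and both). Contigs chosen on pool a had an unadjusted p under 0.05 in pool b in 1.33% at 20 °C, 1.33% at 24 °C and 3.33% over both temperatures, against 11.9%, 18.6% and 23.2% of eligible contigs. Those chosen on pool b had it in pool a in 1.33%, 8.00% and 7.33%, against 12.5%, 14.4% and 19.6%. In the pool left out of the choice, the log2 fold changes for northern warming ran from -0.41 to 0.36 in pool b (median absolute value 0.093 against 0.148 for eligible contigs) and from -0.40 to 0.29 in pool a (0.059 against 0.143). The median SE was 0.12 in pool b and 0.10 in pool a, on 12 libraries each, against 0.06 for the 150 members over 24, so these ranges are not compared. Among contigs chosen on 1 pool the 95% intervals for northern warming reached -0.72 and 0.68 in pool b.

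The 150 contigs were then used as the reference for the contigs that did respond to warming. Warming in northern larvae was called for 175 contigs with TMM, of which 100 were eligible (64 rose and 36 fell). Their CVs ran from 9.00% to 103% with a median of 20.0%, and the one of lowest CV, TRINITY_DN121498_c0_g1_i1 (177 CPM, log2 fold change -0.28 ± 0.05 SE, edgeR adjusted p = 0.0162), stood at place 840 of the 5750 in order of CV. Its log2 fold change was -0.31 to -0.26 over 36 alternatives, while its adjusted p lay above 0.05 without any 1 northern population, which leaves fewer libraries (edgeR adjusted p of 0.0563, 0.173 and 0.12 without populations 1, 2 and 3), and with pools summed (0.291). The members were chosen for a low CV on the TMM scale in these same libraries, so the closeness of the 2 scales and of their calls was fixed by the choice and is a description. The scales set by the members and by TMM differed by 0.973 to 1.03 times over the libraries, while raw totals differed from TMM by 0.863 to 1.25 times. With library sizes scaled to the summed members, edgeR called 200 contigs for northern warming (112 rose and 88 fell), 168 of them among the 175, which are 84.0% and 96.0% of the lists. For southern warming it called 29 contigs against 33 with TMM, with 28 in common (96.6% and 84.8%). Without the population block the TMM calls were 190 for northern and 0 for southern warming, and DESeq2 called 807 and 57. With the pools of a population and temperature summed, so that populations alone are the replicates, edgeR called 2 contigs for northern warming (0.00639%), 0 for southern warming and 4 for their mean (0.0128%). Single libraries moved these counts by over 1.5 times. With TMM the northern count ran from 62 without northern pool 2b at 20 °C to 322 without northern pool 1a at 20 °C. With member scaling the northern count was 68 without northern pool 1a at 24 °C and 307 without northern pool 1a at 20 °C, and the southern count was 2 without southern pool 2a or 2b at 20 °C.

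Per 1000 counts of the 150 contigs, the 108 contigs that rose in northern larvae had, in those larvae, 1646 ± 127 counts at 24 °C against 1005 ± 122 at 20 °C, without overlap between 1519 to 1803 and 809 to 1191. In southern larvae they had 1156 ± 129 at 24 °C and 1080 ± 65.9 at 20 °C (SD, n = 6 each), with overlap. Contigs with the most counts weigh most in these sums, which do not give the response of single contigs. For the 67 that fell, northern larvae had 171 ± 9.01 at 24 °C against 243 ± 12.9 at 20 °C, and southern larvae 194 ± 7.10 at 24 °C against 229 ± 8.50 at 20 °C. For the falling contigs the groups did not overlap in either latitude, with 185 to 206 at 24 °C and 218 to 241 at 20 °C in southern larvae. These contigs were chosen on the northern libraries, so their northern values are a description, while the southern ones took no part in the choice beyond a shared estimate of the spread.

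Relative to the members, TRINITY_DN76281_c0_g1_i1 in northern larvae had 2.21 ± 0.377 counts per 1000 at 24 °C against 0.699 ± 0.136 at 20 °C, and in southern larvae 1.65 ± 0.460 at 24 °C against 0.952 ± 0.431 at 20 °C (SD, n = 6 each). TRINITY_DN69847_c1_g2_i1 in northern larvae had 4.13 ± 1.04 at 24 °C against 1.48 ± 0.329 at 20 °C, and in southern larvae 3.20 ± 0.802 at 24 °C against 2.05 ± 0.659 at 20 °C. Both rose in northern larvae without overlap of the groups, and in southern larvae their groups overlapped through 1 library, pool 3b at 20 °C, with 1.81 for the first and 3.32 for the second. The other 5 southern libraries at 20 °C reached at most 0.880 and 2.19, below the lowest southern value at 24 °C, 1.09 for the first and 2.26 for the second. TRINITY_DN173612_c0_g1_i2 in northern larvae had 9.03 ± 0.905 at 24 °C against 13.3 ± 0.667 at 20 °C, and in southern larvae 10.9 ± 0.461 at 24 °C against 13.7 ± 0.809 at 20 °C. TRINITY_DN224631_c0_g4_i1 in northern larvae had 0.977 ± 0.380 at 24 °C against 2.84 ± 0.746 at 20 °C, and in southern larvae 1.52 ± 0.408 at 24 °C against 2.48 ± 0.351 at 20 °C. Both fell in northern larvae without overlap, and in southern larvae the groups were apart for the first of this pair and overlapped for the second.

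The choice of reference changed which of these passed in southern larvae. TRINITY_DN76281_c0_g1_i1 had a southern log2 fold change of 0.82 ± 0.16 with TMM (SE, edgeR adjusted p = 0.0477) and 0.80 ± 0.16 with the members (edgeR adjusted p = 0.0623). TRINITY_DN173612_c0_g1_i2 had -0.31 ± 0.06 with TMM (edgeR adjusted p = 0.0662) and -0.33 ± 0.06 with the members (edgeR adjusted p = 0.0349). The log2 fold changes moved by less than their SE, and the adjusted p-values crossed the threshold of 0.05 in opposite directions. Over 36 alternatives the southern call of TRINITY_DN76281_c0_g1_i1 was lost in 33 (edgeR adjusted p up to 0.741, with pools summed), and TRINITY_DN173612_c0_g1_i2 passed in 3. In northern larvae all 4 contigs were called with either reference on single libraries, while with pools summed TRINITY_DN173612_c0_g1_i2 (edgeR adjusted p = 0.252) and TRINITY_DN224631_c0_g4_i1 (edgeR adjusted p = 0.197) were not. On single libraries the 4 had log2 fold changes of 1.67, 1.48, -0.56 and -1.59 relative to the members.

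**Figure D5:**
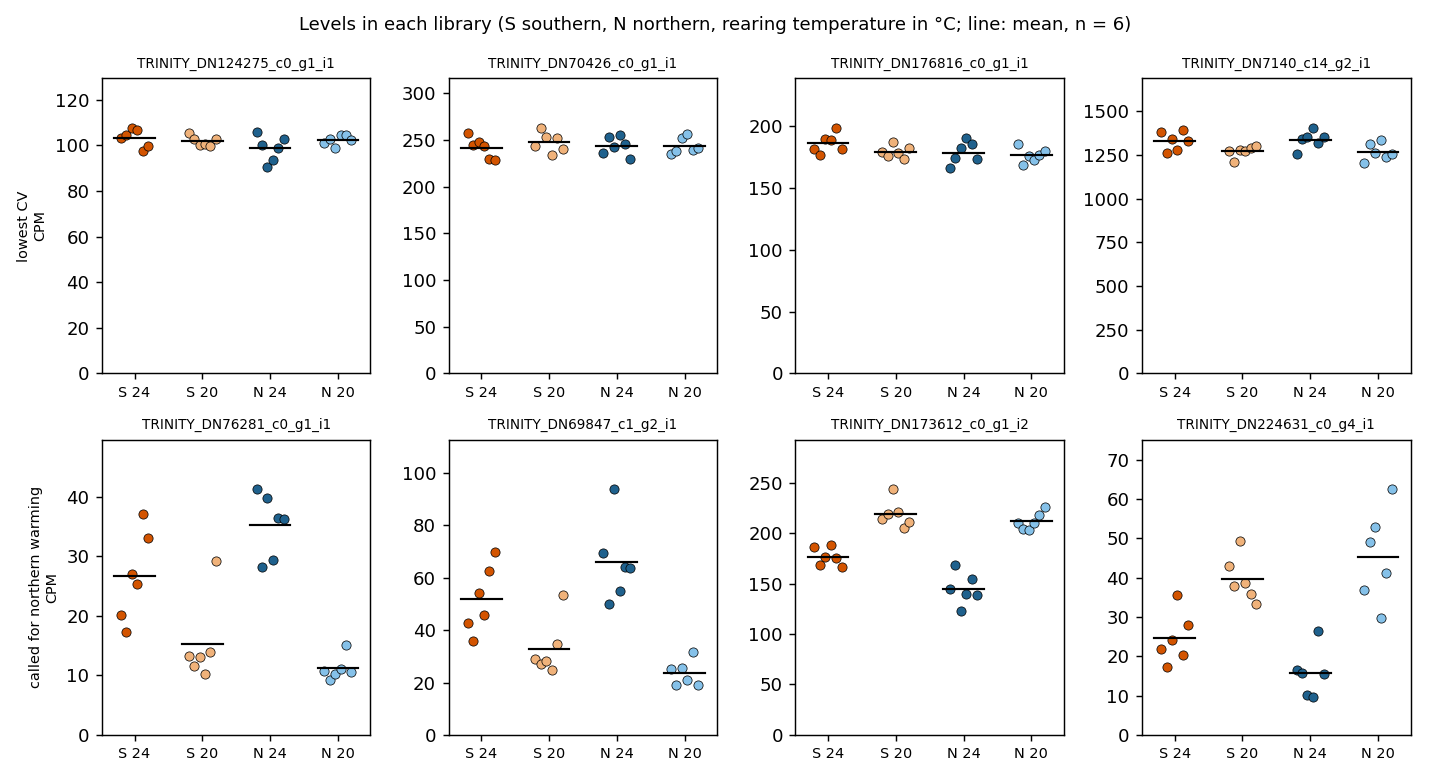
Level (CPM, axes from 0) in each library of the 4 contigs of lowest CV (upper row) and of 4 contigs called for warming in northern larvae (lower row), by latitude (S southern, N northern) and rearing temperature in °C, with the mean of 6 libraries as a line. The upper groups overlap throughout, while in the lower row the N 24 and N 20 libraries are apart.

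Reference sets of 1 to 150 contigs were set against the TMM scale in the pool not used to choose them. With the mean log2 count of the single contig of lowest CV, the SD of the log2 ratio to the TMM scale was 0.106 over the 12 libraries of pool b and 0.175 over those of pool a. It was 0.055 and 0.117 with 3 contigs, 0.062 and 0.087 with 5, 0.056 and 0.060 with 10, 0.023 and 0.041 with 50 and 0.029 and 0.030 with all 150. The SD did not fall at every step: in pool b it was higher with 5 contigs than with 3 and higher with 150 than with 50. Raw library totals gave 0.130 and 0.148. With 150 contigs the library farthest off differed by 4.53% in pool b and 3.50% in pool a, against 21.8% and 16.1% for raw totals. The sets were chosen for a low CV on a TMM scale in the other pool, so closeness to TMM was favoured by the choice. Whether they make a better reference than raw totals was not tested.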

How the data were processed

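Raw counts of 34095 Trinity contigs in 24 libraries came as 1 table that the authors deposited. Tools named per the submitters' processing notes are Subread 1.5.1 with featureCounts, Trimmomatic 0.36 and FastQC 0.11.5. The sources used here do not state aligner settings, assembly steps or strand. Library totals were 12061616 to 17157615 counts, and 3 counts, taken as the floor, were 0.176 to 0.282 CPM.

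Tests on these counts used R 4.3.3 with edgeR 4.0.16, limma 3.58.1 and DESeq2 1.42.0. The filterByExpr filter (minimum count 10, minimum total 15, over 4 groups) left 31287 contigs. CPM used raw totals multiplied by TMM factors, and log2 CPM a prior count of 2. Temperature was tested by robust quasi-likelihood F tests with 6 population intercepts and, per latitude, 1 effect of temperature, on single libraries. Latitude was tested on population sums. P-values were Benjamini-Hochberg adjusted over all contigs tested, at 0.05. SE were derived from the F statistics. The tests were first tested on simulated data. Populations pair the libraries by the labels. After removal of group means, both temperatures of a population correlated at 0.0412 (northern population 2) to 0.383. Pools differed by more than sampling noise (chi-square per degree of freedom 11.9 to 60.4). The population intercepts take out the spread between populations. Temperature p-values therefore reflect only the spread between pools, which share a source, and that of population by temperature.

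The members, lists and tests were chosen with earlier results of these data known. Named contigs are the 4 members of lowest CV, the 2 of highest CPM, 2 on each side of the threshold of the list, the members with the highest and lowest log2 fold change in each comparison, and of eligible contigs called for northern warming with the same sign in 3 populations the 2 of smallest p in each direction. Other scalings, filters, tools, measures of spread and sets of libraries were tried.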

Additional observations from a re-analysis of the deposited data

Results flagged for a closer look

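The 120 sets of 6 libraries examined share libraries, so they are not independent. In 8 of them a library lay far from the other 5, a number near the 5% or so of sets that chance flags. Of these 8, 3 concern the 150 contigs. Their share of raw counts was 1.64% in northern pool 1b at 24 °C, where the next library had 1.43%. Their median absolute deviation from their own means was lowest in southern pool 2b at 20 °C, at 0.0402 log2 units against 0.0546 for the next. TRINITY_DN7140_c14_g2_i1 had 1207 CPM in southern pool 1b at 20 °C, below the next value of 1270 CPM.

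Northern pool 1b at 20 °C stood apart in 2 measures outside the 150 contigs. The other eligible contigs deviated from their own means by a median of 0.272 log2 units there, against 0.169 in the next library of its group. The 10 contigs with the most counts took 14.5% of its counts, against 19.9% in the next. Among the contigs that responded to warming, TRINITY_DN76281_c0_g1_i1 had 15.1 CPM in northern pool 3a at 20 °C (next 11.1 CPM) and 29.1 CPM in southern pool 3b at 20 °C (next 13.9 CPM). In that same southern library TRINITY_DN69847_c1_g2_i1 had 53.4 CPM, against 34.7 CPM in the next.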

How the results depend on the processing

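The count of members called was 0 in all 7 comparisons, and it stayed 0 with RLE size factors, without the filter on low counts, with scaling to the members and without any 1 library or population. Without the replicate block (population) it was 0 in the 4 temperature comparisons, among 190, 0, 494 and 0 contigs called in all for northern warming, southern warming, their mean and their difference. With the pools of a population and temperature summed, added after the data were seen, it was 0 in these 4, among 2, 0, 4 and 0 contigs called in all. On single libraries with population as a replicate block it was 0, 0 and 2 for latitude at 20 °C, at 24 °C and over both, among 24, 846 and 3154 contigs called in all. With DESeq2 it was 2 for northern warming and 2 for the mean of both latitudes, among 807 and 1115 contigs called in all, and 0 in the other 5 comparisons. Which contigs are members depended more on the processing. The number of the 150 members kept was 13 on raw totals, 60 with the median absolute deviation over the median, 90 with the mean CV within groups, and 96 (without northern population 1) to 141 with 1 library or population left out. The median CV of the 150 members was then 8.63% on raw totals, 7.28% with the median absolute deviation, and 5.49% (without northern population 1) to 6.19% with libraries left out. Of 26 log2 fold changes of named contigs recomputed under 36 alternatives each for temperature and 35 each for latitude, 0 changed direction. Contigs named for their level alone were not part of this.

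Calls with member scaling ranged from 68 to 307 for northern warming and from 2 to 35 for southern warming with 1 library left out. The northern count of 200 moved by over 1.5 times without northern_20 1a (307), 2a (101), 2b (72), 3a (104) or 3b (76), northern_24 1a (68), 2b (112), 3a (87) or 3b (132), and southern_20 1b (129). The southern count of 29 did so without northern_20 1a (9) or 1b (16), northern_24 1a (8) or 1b (12), southern_20 1b (16), 2a (2), 2b (2), 3a (14) or 3b (16), and southern_24 1b (14), 2a (8), 2b (9), 3a (16) or 3b (13). Depth limits contigs near 20 CPM most, where counting error alone gives CVs of up to 5.81% among the members. The causes were not tested.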

Other observations

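The 5750 eligible contigs were parted by CV over 24 libraries into 10 bins of 575. The bin of lowest CV (3.88% to 8.33%) held 0 contigs called for northern warming, the eighth (20.6% to 26.9%) held 23 and the last held 10. For southern against northern larvae over both temperatures the first 4 bins held 0 calls, the fifth 1, and the last 3 bins 64, 81 and 91. The CV was computed on the same libraries as these calls, so the counts are a description. The median CV was 20.0% for the 100 eligible contigs called for northern warming and 33.0% for the 256 called for latitude over both temperatures.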
